A study of Mus musculus with 11 samples.

Results

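Genes for making fatty acids and the glycerol backbone of stored fat were followed in 11 mouse tumours: Fasn, Acaca, Acly, Scd1, Scd2, Elovl6, Me1, Thrsp, Pck1 and Gpd1. These 10 genes, of 17181 in the expression table, were selected by name, with earlier results on these same tumours in view, to tell lipid genes that tumour cells share with fat from those that follow fat tissue. All 10 were present and all 10 were among the 13074 genes tested, those with a level of at least 1 FPKM in at least 2 tumours. FPKM is a read count scaled to transcript length and to library size, so levels of different genes can be set side by side on it. The choice of genes used all 11 tumours, so the relation to fat markers below is given as a description with no test, and the group comparisons support nothing beyond the values themselves.

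The tumours grew from 4T1, a triple-negative mouse mammary carcinoma line, injected subcutaneously into both flanks. The series design names NSG mice as hosts, an immunodeficient strain that lacks mature B, T and NK cells, while its title calls the model syngeneic; the genotype label is WT in every group. Treatment began at about 100 mm3 and tumours were collected after 12 days. Vehicle tumours (n = 2, titled untreated) received sodium lactate with corn oil and DMSO. OPG-Fc tumours (n = 3) received 10 mg/kg of OPG-Fc, an osteoprotegerin fusion protein that binds RANKL, by intraperitoneal injection 3 times a week. Palbociclib tumours (n = 3) received 30 mg/kg of this CDK4/6 inhibitor by mouth each day. Combination tumours (n = 3) received palbociclib and 10 mg/kg of OPG-Fc 3 times a week; their palbociclib dose is not repeated in the label. Age and sex of the mice are not given in the sources used here, nor is it stated whether any tumours shared a mouse, so each p-value reflects the spread among the tumours at hand, which may be partly technical.

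Fatty acid synthesis starts when ATP citrate lyase (Acly) cuts citrate to cytosolic acetyl-CoA; acetyl-CoA carboxylase (Acaca) makes malonyl-CoA from it, and fatty acid synthase (Fasn) builds palmitate, using NADPH that malic enzyme (Me1) helps to supply. Elovl6 lengthens palmitate and the stearoyl-CoA desaturases (Scd1, Scd2) add a double bond, while Thrsp encodes Spot 14, a small protein of lipogenic tissues that promotes fatty acid synthesis. Pck1 and Gpd1 provide glycerol 3-phosphate, onto which fat cells esterify fatty acids, and many carcinoma cells run the synthesis part of this pathway as well.

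The promoters of 4 genes are shown because they carry the contrast that runs through the values: Fasn and Acly varied 5.60-fold and 2.77-fold between the lowest and highest tumour, Thrsp and Pck1 from close to 0 to 196.08 and 21.23 FPKM. Each line gives the 250 bases before the RefSeq start on GRCm38.p6, 5′ to 3′ on the gene's strand, with E-boxes (CANNTG), CCAAT boxes (CCAAT) and GC boxes (GGGCGG), on either strand, in capitals. Fasn lies at chr11:120824548-120824797 (minus strand), Acly at chr11:100528001-100528250 (minus), Thrsp at chr7:97417551-97417800 (minus) and Pck1 at chr2:173152823-173153072 (plus). The deposited values were made on a different build (GRCm39), so these coordinates serve the sequences alone.
Fasn: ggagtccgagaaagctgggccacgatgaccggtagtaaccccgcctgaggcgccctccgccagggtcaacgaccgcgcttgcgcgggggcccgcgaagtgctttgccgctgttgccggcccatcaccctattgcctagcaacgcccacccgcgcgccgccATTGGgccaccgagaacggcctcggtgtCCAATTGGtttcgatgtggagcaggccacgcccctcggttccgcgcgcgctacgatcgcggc
Acly: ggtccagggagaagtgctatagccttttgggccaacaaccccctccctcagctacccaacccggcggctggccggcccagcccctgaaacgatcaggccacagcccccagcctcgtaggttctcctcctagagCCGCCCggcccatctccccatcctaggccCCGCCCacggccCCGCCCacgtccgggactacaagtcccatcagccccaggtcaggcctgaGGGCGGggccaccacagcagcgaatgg
Thrsp: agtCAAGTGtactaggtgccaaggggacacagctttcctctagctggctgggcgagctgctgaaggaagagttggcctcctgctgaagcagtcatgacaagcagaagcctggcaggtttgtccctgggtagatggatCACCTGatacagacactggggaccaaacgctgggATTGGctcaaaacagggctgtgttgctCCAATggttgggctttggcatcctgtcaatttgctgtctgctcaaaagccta
Pck1: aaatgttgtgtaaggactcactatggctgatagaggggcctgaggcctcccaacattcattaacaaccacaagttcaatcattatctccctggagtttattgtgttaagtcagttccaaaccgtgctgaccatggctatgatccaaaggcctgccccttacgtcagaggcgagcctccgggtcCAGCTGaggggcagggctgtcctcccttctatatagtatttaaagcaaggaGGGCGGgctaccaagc

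Over these 250 bases the Fasn promoter held 3 CCAAT boxes and 1 E-box. Its run of capitals near the start is a pair of overlapping CCAAT boxes that faces both ways, and the E-box lies within it. Acly held 4 GC boxes and none of the other motifs, Thrsp 2 E-boxes and 2 CCAAT boxes, and Pck1 1 E-box and 1 GC box. GC content was 69.2% for Fasn and 68.8% for Acly, against 53.6% for Thrsp and 50.8% for Pck1. The RefSeq table matched 7 of the 10 genes with 8 promoters (Me1 has 2); Scd1, Scd2 and Gpd1 had no entry. Over the full window of 250 bases before to 50 after the start, CANNTG was in 5 of the 8 promoters and in 72.3% of all 32851, CCAAT in 4 and 37.4%, and GGGCGG in 3 and 35.7%. The sterol regulatory element TCACNCCAC was in 0 of 8 and 1.24% of all, its LDL receptor type in 0 and 0.0913%, the palindromic E-box CACGTG in 0 and 7.15%, the C/EBP motif TTGCNNAA in 0 and 10.8%, and the PPAR/RXR direct repeat in 0 and 0.0396%. The palindromic E-box is also a CANNTG match. These are letter matches in short windows, not sites.

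Fat and other host tissue differed between the tumours and is given here because it bears on every result. Adipoq, which encodes the fat cell hormone adiponectin, measured 3.45 and 75.22 FPKM with vehicle, 75.02, 113.05 and 34.11 with OPG-Fc, 4.21, 2.72 and 2.21 with palbociclib, and 16.98, 3.28 and 23.09 with the combination. Plin1, which coats lipid droplets, followed the same order of groups: 0.28 and 6.99, then 11, 18.16 and 5.00, then 0.59, 0.50 and 0.67, then 2.45, 0.85 and 2.11 FPKM. All 12 adipocyte markers were above 0 in every tumour, and summed to 95.5 to 1315 FPKM with vehicle, 840.9 to 2751 with OPG-Fc, 70.5 to 112.6 under palbociclib, and 112.6 to 753.9 in combination tumours. The tumours are labelled epithelial, and Epcam (336.26 to 604.1 FPKM) and Krt8 (587.33 to 822.7) were high in 10 of them. In vehicle replicate 2 they stood at 11.71 and 9.34 FPKM, beside 722.98 FPKM of the B cell gene Cd79a, so the epithelial label does not hold for that library and vehicle has 1 epithelial tumour. Elsewhere Cd79a reached 73.58 FPKM in OPG-Fc replicate 2 and at most 3.36 in the other 9. The keratinocyte gene Krt10 peaked at 112.56 FPKM in a palbociclib tumour, against at most 9.37 in any other group, the muscle gene Ckm ranged from 0.06 to 60.06 FPKM, and the sebaceous gene Awat2 from 0.36 to 1.26. The 8 sebaceous markers together were not level: their median ran from 0.07 to 0.41 FPKM in vehicle and OPG-Fc tumours and up to 1.58 with palbociclib and 1.22 in the combination. The part of these tissues in the results was not tested beyond the fat marker fits given here. In whole tumours, fewer cells of a type and less RNA per cell cannot be told apart.

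**Figure D1:**
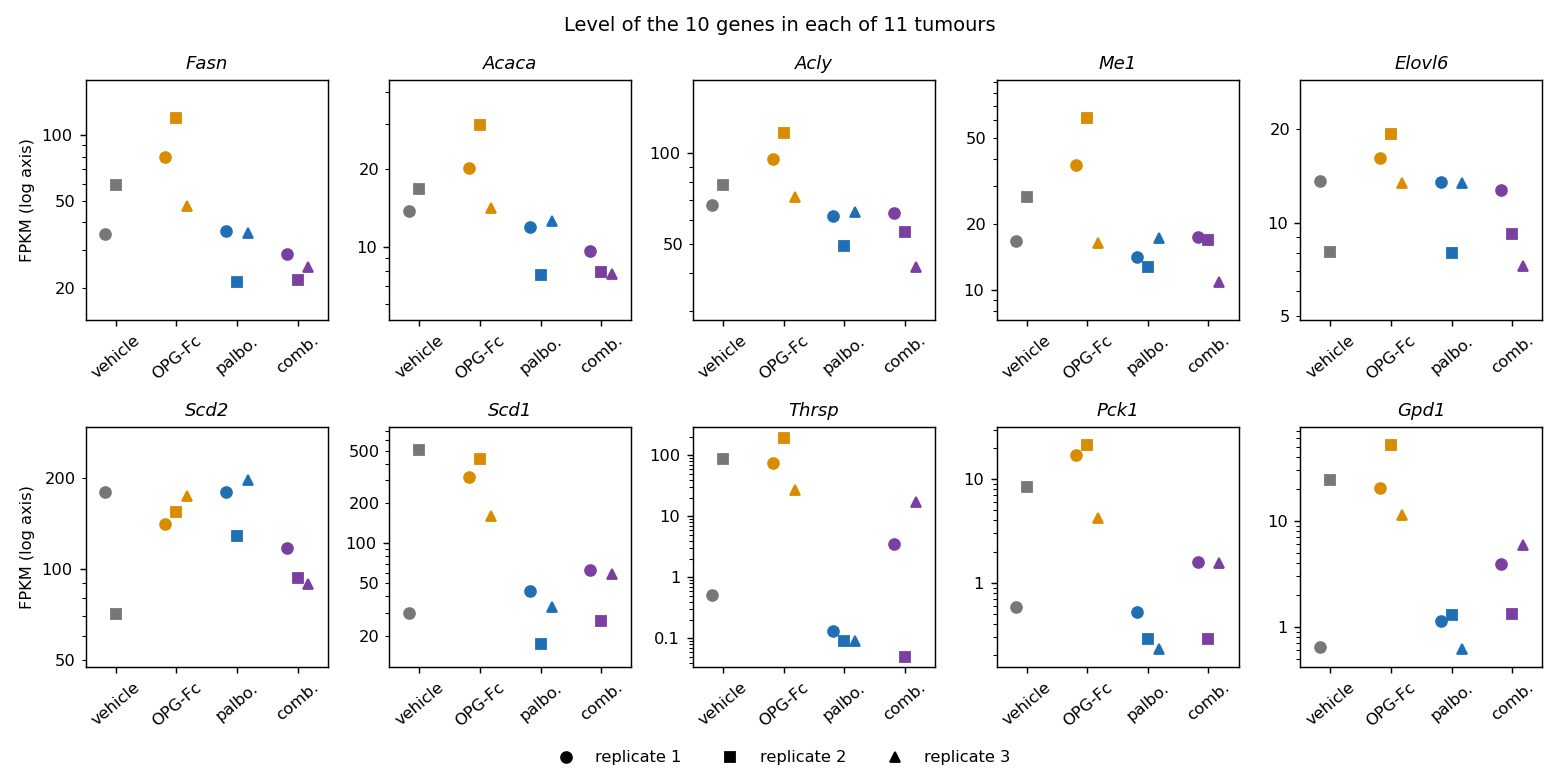
Level of each of the 10 genes (FPKM, log axis, scaled separately per gene) in each tumour by treatment; point shapes are replicates 1, 2 and 3 and no error is drawn. Thrsp, Pck1, Gpd1 and Scd1 are high in all 3 OPG-Fc tumours and vehicle replicate 2, while Acly spans only 42.03 to 116.27 FPKM over all 11.

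The opening enzymes of the pathway were present in every tumour and spanned a narrower range than the fat-linked genes. Acly measured 67.10 and 78.16 FPKM with vehicle, 95.63, 116.27 and 71.43 with OPG-Fc, 62.11, 49.20 and 63.69 with palbociclib, and 63.15, 55.02 and 42.03 with the combination. Acaca stood lower throughout, at 13.76 and 16.76, 20.11, 29.67 and 14.15, 11.90, 7.75 and 12.52, and 9.59, 7.97 and 7.79 FPKM in the same order. Fasn measured 35.49 and 59.12 FPKM with vehicle, 79.61, 119.80 and 47.54 with OPG-Fc, 36.61, 21.39 and 35.77 with palbociclib, and 28.69, 21.86 and 25.11 with the combination. For all of Acly, Acaca and Fasn, each palbociclib and each combination tumour lay below each OPG-Fc tumour. Group means ran from OPG-Fc through vehicle and palbociclib to the combination: for Fasn 82.3 ± 36.2 (SD, n = 3), 47.3 ± 16.7 (n = 2), 31.3 ± 8.56 (n = 3) and 25.2 ± 3.42 FPKM (n = 3). Neighbours in that order overlapped for Fasn at each step; for Acaca and Acly the step from vehicle to palbociclib did not overlap, and the others did.

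Me1, the cytosolic malic enzyme, spread most within OPG-Fc. It measured 37.60, 61.41 and 16.41 FPKM there, 16.76 and 26.67 with vehicle, 14.16, 12.78 and 17.40 with palbociclib and 17.58, 16.93 and 10.89 with the combination. OPG-Fc replicate 3, the OPG-Fc tumour with the least Adipoq, lay among the palbociclib and combination tumours, so no pair of groups was apart for Me1.

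The elongase Elovl6 ranged from 7.25 to 19.28 FPKM, a narrower range than that of Scd1. It measured 13.57 and 8.06 FPKM with vehicle, 16.11, 19.28 and 13.46 with OPG-Fc, 13.50, 7.96 and 13.43 with palbociclib and 12.74, 9.17 and 7.25 with the combination. The combination lay below OPG-Fc without overlap, and every other pair of groups overlapped.

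The desaturases went different ways. Scd1 measured 29.98 and 504.21 FPKM with vehicle, 318.56, 433.68 and 161.29 with OPG-Fc, 44.08, 17.42 and 33.25 with palbociclib, and 63.38, 26.09 and 58.79 with the combination. Scd2 measured 179.25 and 70.94, 140.91, 154.08 and 173.62, 179.18, 128.54 and 196.55, and 117.50, 93.61 and 89.45 FPKM in the same order. Scd1 was lower in every palbociclib and combination tumour than in any OPG-Fc tumour, whereas Scd2 was lowest in vehicle replicate 2 and, apart from it, in the 3 combination tumours. As a share of the Scd1 and Scd2 level together, Scd1 made up 14.3% and 87.7% with vehicle, 69.3%, 73.8% and 48.2% with OPG-Fc, 19.7%, 11.9% and 14.5% with palbociclib and 35.0%, 21.8% and 39.7% with the combination. The shares did not overlap between OPG-Fc, the combination and palbociclib, and the vehicle pair lay at 1 low and 1 high value. The Scd genes are close paralogues, so the split of reads between them is uncertain.

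**Figure D2:**
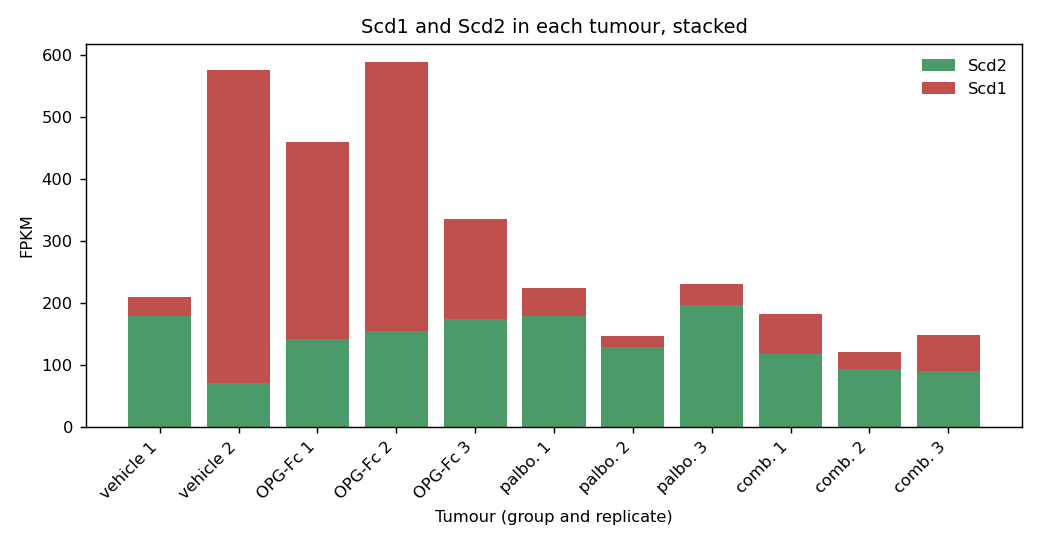
Stacked levels of Scd2 (lower part of each bar) and Scd1 (upper part) in FPKM, 1 bar per tumour and no error drawn. Scd1 forms most of the bar in vehicle replicate 2 and OPG-Fc replicates 1 and 2 and 48.2% in OPG-Fc replicate 3, and the smaller part in the other 7 tumours.

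Thrsp had the widest range of the 10 genes. It measured 0.52 and 88.81 FPKM with vehicle, 75.03, 196.08 and 27.56 with OPG-Fc, 0.13, 0.09 and 0.09 with palbociclib, and 3.58, 0.05 and 17.49 with the combination. All palbociclib tumours lay below both vehicle tumours and all OPG-Fc tumours, while the combination spread across both ends, from below the palbociclib tumours to well above them. Per unit of Adipoq, the ratio of Thrsp was 0.151 and 1.18 with vehicle, 1.0, 1.73 and 0.808 with OPG-Fc, 0.0309, 0.0331 and 0.0407 with palbociclib, and 0.211, 0.0152 and 0.757 with the combination, so Thrsp was lower relative to Adipoq in the tumours with the least Adipoq. Values this close to 0 rest on few reads, and the depth is unknown.

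The glycerol genes had the same high and low tumours as Thrsp. Pck1, cytosolic phosphoenolpyruvate carboxykinase, measured 0.59 and 8.46 FPKM with vehicle, 17.10, 21.23 and 4.17 with OPG-Fc, 0.53, 0.29 and 0.23 with palbociclib, and 1.60, 0.29 and 1.57 with the combination. Gpd1, glycerol-3-phosphate dehydrogenase, measured 0.65 and 24.38, 20.66, 51.52 and 11.46, 1.13, 1.29 and 0.62, and 3.94, 1.33 and 5.96 FPKM in that order. For both genes all OPG-Fc tumours lay above all palbociclib and combination tumours, and vehicle replicate 1 lay in or just above the palbociclib range while vehicle replicate 2 lay within the OPG-Fc range. Unlike Thrsp, both kept closer to Adipoq, at 0.188 to 0.474 of it for Gpd1 and 0.068 to 0.228 for Pck1 across the 11 tumours.

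The adipocyte marker level, the mean log2(FPKM + 1) of the 12 markers with none of the 10 genes among them, separated the genes into a fat-linked set and the rest. Over the 11 tumours, Pearson's r with it was 0.993 for Gpd1 (Spearman's rho 0.982), 0.992 for Thrsp (rho 0.866), 0.961 for Pck1 (rho 0.920) and 0.947 for Scd1 (rho 0.855). It was 0.789 for Fasn (rho 0.655), 0.728 for Me1 (rho 0.527), 0.690 for Acaca (rho 0.600) and 0.663 for Acly (rho 0.582). Elovl6 (r = 0.256, rho 0.245) and Scd2 (r = -0.310, rho -0.464) showed little or the opposite relation. For each unit of marker level on the log2 scale Thrsp was 2.13 higher, Gpd1 1.28, Scd1 1.17 and Pck1 1.09, against 0.44 for Fasn and 0.20 for Acly.

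Leaving out the tumours farthest from the median marker level, OPG-Fc replicates 1 and 2 (n = 9), kept r at 0.990 for Gpd1, 0.986 for Thrsp, 0.959 for Pck1 and 0.911 for Scd1. The same step lowered it to 0.551 for Fasn, 0.371 for Me1, 0.340 for Acaca and 0.269 for Acly, so the relation of these enzymes to fat markers rested largely on those tumours. It became -0.343 for Elovl6 and -0.588 for Scd2. Without vehicle replicate 2 (n = 10), r changed little for 8 genes (0.992 for Gpd1, 0.777 for Fasn, 0.652 for Acly) and moved to 0.463 for Elovl6 and -0.115 for Scd2. In the same 10 tumours, r with the mean log2(FPKM + 1) of the 12 epithelial markers was negative for every gene but Scd2 (0.059). It ran from -0.826 for Pck1 to -0.577 for Elovl6, with -0.725 for Acly, -0.724 for Me1, -0.680 for Fasn and -0.639 for Acaca. The points share library preparation and treatment groups, and the genes were chosen with this pattern in view, so no p is given. Among the epithelial tumours, vehicle replicate 1 had a marker level of 1.85, within the 1.63 to 1.98 of palbociclib, its Fasn (35.49 FPKM) lay inside the palbociclib range of 21.39 to 36.61, and its Acly (67.10 FPKM) just above the palbociclib maximum of 63.69. Combination replicates 1 and 3 had marker levels of 3.17 and 3.66, above every palbociclib tumour. Their Fasn (28.69 and 25.11 FPKM) lay below palbociclib replicates 1 and 3 and above palbociclib replicate 2 (21.39). Palbociclib replicates 1 and 3 are the tumours with high Krt10 (112.56 and 73.40 FPKM, against 1.74 in replicate 2). Scd2 in combination replicates 1 and 3 lay below all palbociclib tumours. The cause was not tested.

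**Figure D3:**
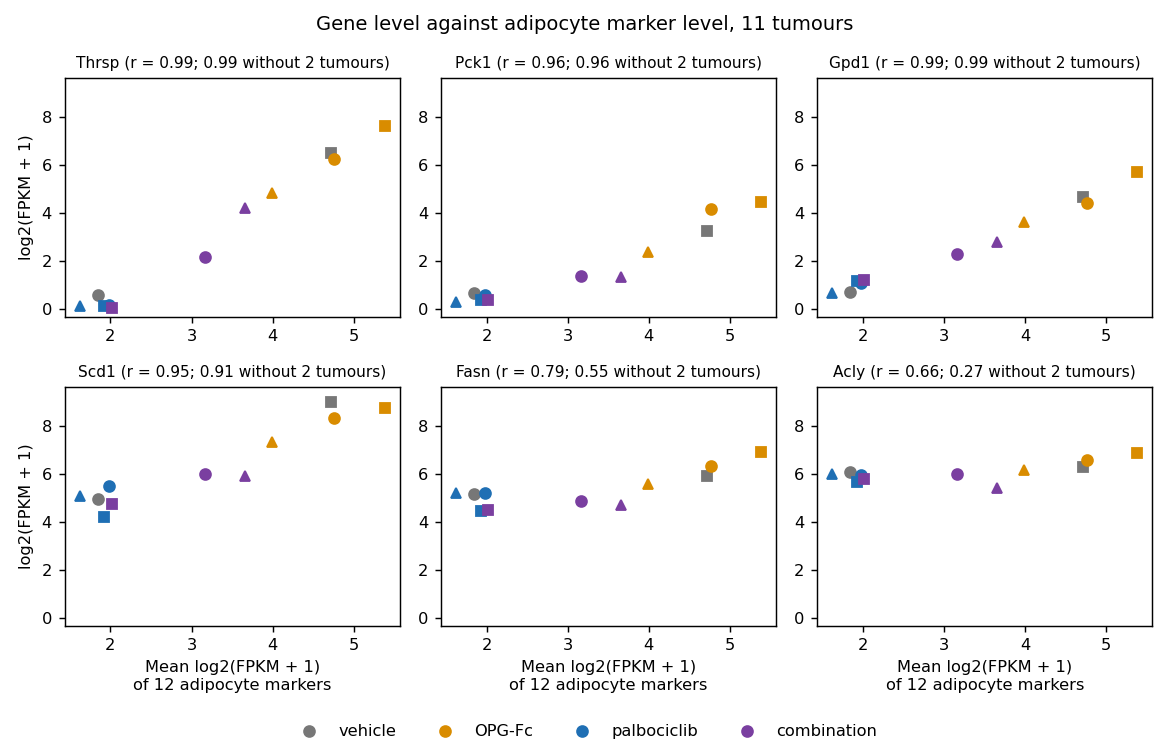
Level of 6 genes, log2(FPKM + 1), against the mean log2(FPKM + 1) of 12 adipocyte markers, 1 point per tumour, coloured by treatment with shapes for replicates 1 (circle), 2 (square) and 3 (triangle). Panel titles give Pearson's r over 11 tumours and without OPG-Fc replicates 1 and 2; Thrsp, Pck1, Gpd1 and Scd1 climb along the axis while Fasn and Acly stay within a narrow band.

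The genes with the most similar profiles over the 11 tumours were ranked by Pearson's r of log2(FPKM + 1). Thrsp was closest to Cyp2e1 (r = 0.995), Adipoq (0.988) and Adig (0.987), Gpd1 to Ephx2 (0.993), Adig (0.988) and Serpina3c (0.986), and Pck1 to Ces1d and Pcx (both 0.985) and Cdo1 (0.982). Adiponectin and adipogenin (Adig) are fat cell products. Scd1 was closest to Galnt18 (0.989), Pnpla3 (0.987) and Myh11 (0.983). Fasn was closest to Acacb (0.950), Acsl1 (0.948) and Aldh6a1 (0.936), genes near Acaca were Acacb and Aldh6a1 (both 0.913), and genes near Acly were Aacs (0.922) and Acsl1 (0.921). Me1 was closest to Fam13a (0.931), Acsl1 (0.930) and Chil3 (0.922). Scd2 was closest to Gtf2i (0.968), 2210418O10Rik (0.967) and Itga8 (0.959), and Elovl6 to Exoc1 (0.946), Piezo1 (0.945) and Ece1 (0.923). Among themselves, Thrsp and Gpd1 (r = 0.985), Fasn and Acaca (0.984), Pck1 and Gpd1 (0.967) and Acaca and Acly (0.964) ran closest, Scd1 and Scd2 ran apart (-0.214), and Scd2 went best with Elovl6 (0.731). Fasn also ran with the fat-linked genes, at 0.906 with Pck1, 0.879 with Scd1, 0.818 with Gpd1 and 0.809 with Thrsp, so the 2 sets were not sharply apart.

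Combination tumours were set against OPG-Fc tumours to ask what palbociclib adds to RANKL blockade. All 10 genes had lower fitted values in the combination, and 9, all but Me1, did not overlap between the groups, against 23.5% of all tested genes that were lower without overlap. The members' median log2 fold change was -1.38, beside -0.07 over all tested genes. With OPG-Fc replicate 1, 2 or 3 left out it was -1.375, -1.09 and -1.78 in turn. None passed at an adjusted p of 0.05 in limma's fit of all 11 tumours, where 0.0994% of genes did. In that fit 9 of 10 had an unadjusted p under 0.05, as did 15.5% of genes. Without OPG-Fc replicate 2 limma gave 4 of 10 under 0.05 unadjusted, beside 1547 of 13074 genes. The largest differences were in Thrsp (-4.08 ± 1.45, log2 fold change ± SE), Pck1 (-2.64 ± 0.69), Scd1 (-2.59 ± 0.88) and Gpd1 (-2.49 ± 0.90). Fasn differed by -1.58 ± 0.34, Acaca by -1.19 ± 0.26, Me1 by -1.14 ± 0.41, Acly by -0.80 ± 0.21, Elovl6 by -0.71 ± 0.28 and Scd2 by -0.64 ± 0.31, with limma's adjusted p from 0.212 (Fasn) to 0.343 (Scd2).

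Vehicle tumours enter this comparison only through the shared estimate of spread, and without vehicle replicate 2 the calls changed. In that fit, 6 of the 10 genes fell, beside 3.72% of all tested genes: Scd1 (adjusted p = 0.0219, limma), Pck1 (0.0247), Fasn (0.0296), Gpd1 (0.0330), Acaca (0.0363) and Thrsp (0.0437). Acly (adjusted p = 0.0538), Scd2 (0.0608), Elovl6 (0.0927) and Me1 (0.0944) did not pass. The fold changes are the same. Leaving out vehicle replicate 1 instead gave nearly the same fit by construction, since a single vehicle tumour adds nothing to the spread. With both vehicle tumours kept, leaving out any single OPG-Fc, palbociclib or combination tumour gave 0 calls, as did the fit of all tumours. Whether the calls made without vehicle replicate 2 hold when another tumour is also left out was not tested.

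Palbociclib tumours were set against OPG-Fc tumours to compare the agents given alone. Here 7 of the 10 genes, all but Scd2, Elovl6 and Me1, were lower without overlap, against 21.8% of tested genes. The median was -1.23 on the log2 scale, beside -0.04 over all genes, and none of the 10 passed in limma's fit of 11 tumours (background 0.91%; 8 of 10 at an unadjusted p under 0.05, beside 12.3% of genes). With OPG-Fc replicate 1, 2 or 3 left out the median was -1.18, -0.86 and -1.65 in turn. Thrsp differed by -6.09 ± 1.45 (adjusted p = 0.0889), Gpd1 by -3.60 ± 0.90 (0.105), Pck1 by -3.25 ± 0.69 (0.0656) and Scd1 by -3.21 ± 0.88 (0.135). Fasn differed by -1.31 ± 0.34, Me1 by -1.15 ± 0.41, Acaca by -0.90 ± 0.26, Acly by -0.67 ± 0.21 and Elovl6 by -0.47 ± 0.28, while Scd2 stood at 0.09 ± 0.31.

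Without vehicle replicate 2, limma called 5 of the 10 lower, beside 9.13% of tested genes: Scd1 and Gpd1 (both adjusted p = 0.00262), Pck1 (0.00339), Thrsp (0.00353) and Fasn (0.0258). Acaca (0.0525), Acly (0.0709), Me1 (0.101), Elovl6 (0.269) and Scd2 (0.818) did not pass. Leaving out vehicle replicate 1 instead gave nearly the same fit here as well. With both vehicle tumours kept, leaving out any single tumour of the other groups gave 0 calls, as did the fit of all tumours. Those runs therefore do not show whether the calls made without vehicle replicate 2 hold, which was not tested. Both comparisons share the OPG-Fc tumours, so their values are not independent of each other.

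With the adipocyte marker level as a term in the fit, and without vehicle replicate 2, the differences from OPG-Fc shrank for every gene but Scd2. In the combination against OPG-Fc, Thrsp moved from -4.08 to -0.25 ± 0.46, Gpd1 from -2.49 to -0.43 ± 0.30, Pck1 from -2.64 to -0.87 ± 0.47 and Scd1 from -2.59 to -1.11 ± 0.52. Fasn kept -0.81 ± 0.44 of -1.58, Acaca -0.70 ± 0.40 of -1.19 and Acly -0.64 ± 0.35 of -0.80, and Scd2 went from -0.64 to -0.77 ± 0.31. Elovl6 went from -0.707 to -0.59 ± 0.42 and Me1 from -1.135 to -0.555 ± 0.64. In that fit Acly, Elovl6 and Scd2 kept most or all of their difference. Fasn, Acaca, Me1, Scd1 and Pck1 kept part of it, and Thrsp and Gpd1 little. Thrsp and Gpd1 had r of 0.991 and 0.992 with the marker level in these tumours, so their shrinkage follows from that relation. The genes were chosen with that relation in view, so this order of genes is a description and supports nothing further. In palbociclib against OPG-Fc, Fasn went to -0.05 ± 0.64, Acaca to -0.11 ± 0.57, Acly to -0.41 ± 0.51, Elovl6 to -0.28 ± 0.60, Scd1 to -0.81 ± 0.75, Pck1 to -0.37 ± 0.68, Gpd1 to -0.25 ± 0.43 and Thrsp to 0.13 ± 0.66. No gene, member or other, passed in this fit by limma in either comparison. Vehicle replicate 2 decides several of these values: with it in the fit of 11 tumours and the same term, the combination stood at -0.48 ± 0.47 for Scd1, -1.20 ± 0.29 for Scd2, -0.93 ± 0.35 for Elovl6, -1.01 ± 0.35 for Fasn and -0.20 ± 0.25 for Gpd1, and palbociclib at -0.39 ± 0.45 for Fasn, -0.43 ± 0.41 for Acaca, -0.83 ± 0.45 for Elovl6, -0.82 ± 0.38 for Scd2 and 0.21 ± 0.60 for Scd1, each against OPG-Fc. None of the 10 passed there either. The marker level itself differed between these groups without overlap, so group and marker level are only partly separable here and the standard errors are wider.

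**Figure D4:**
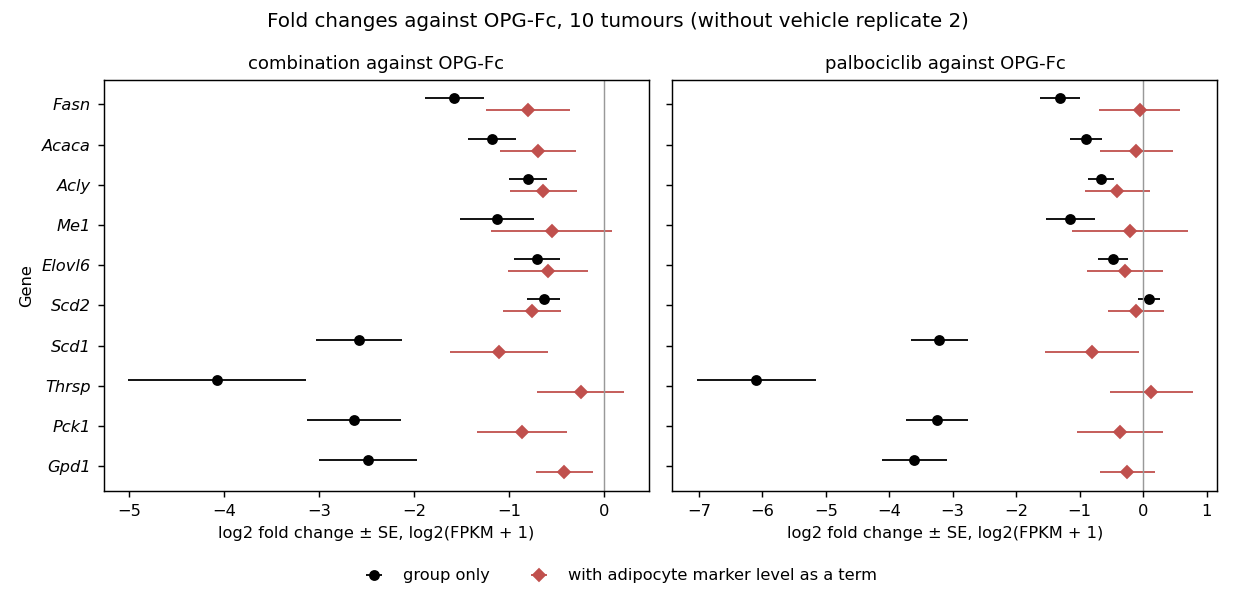
Log2 fold change with its standard error for each gene against OPG-Fc in the 10 tumours without vehicle replicate 2, for the combination (left) and palbociclib (right; the x axes differ). Black circles are fitted by group alone and red diamonds with the adipocyte marker level added; Thrsp moves from -4.08 to -0.25 on the left and from -6.09 to 0.13 on the right.

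The comparisons with vehicle rested on 2 tumours that lay at opposite ends for the fat-linked genes. OPG-Fc against vehicle, the comparison for RANKL blockade alone, had a median of 0.69 on the log2 scale (0.04 over all genes), with all 10 genes above 0. Limma called 0 of 10 and 0% of genes, with 0 of 10 and 10.2% of genes at an unadjusted p under 0.05. Of the 10, 0 lay higher without overlap (12.7% of genes). Pck1 stood at 1.72 ± 0.77 and Scd1 at 1.18 ± 0.99. Scd1 took opposite signs with each vehicle tumour as the control, 3.19 ± 0.64 without vehicle replicate 2 and -0.84 ± 0.64 without vehicle replicate 1.

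Palbociclib against vehicle, the comparison for CDK4/6 inhibition alone, had a median of -0.54 (-0.04 over all genes). Limma called 0 of 10 and 0% of genes, with 0 of 10 at an unadjusted p under 0.05 beside 28.1% of genes. Acaca, Acly, Thrsp and Pck1 were lower without overlap, as were 20.2% of tested genes. Thrsp stood at -3.41 ± 1.62 (limma adjusted p = 0.192), and at -0.46 ± 1.32 against vehicle replicate 1 alone. The combination against vehicle had a median of -0.68 (-0.01 over all genes) and 0 of 10 and 0% of genes called, with 1 of 10 at an unadjusted p under 0.05, fewer than the 29.6% of all genes: Acaca at -0.78 ± 0.29 (limma adjusted p = 0.127). The fat-linked genes turned sign there with vehicle replicate 2 left out, Thrsp from -1.39 to 1.55, Gpd1 from -0.59 to 1.39, Scd1 from -1.41 to 0.60 and Pck1 from -0.92 to 0.37. Fasn, Acaca and Acly were lower without overlap, against 17.8% of tested genes.

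Combination against palbociclib asked what RANKL blockade adds to CDK4/6 inhibition. The median was -0.06 (0.02 over all genes), and limma called 0 of 10 and 0% of genes. Scd2 was lower without overlap (background 7.04%), at -0.73 ± 0.31 (adjusted p = 0.73), the gene with an unadjusted p under 0.05 among the 10 (6.75% of all genes). Gpd1 was higher without overlap (background 13.7%), as was the whole adipocyte marker level, 2.02 to 3.66 against 1.63 to 1.98.

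In the list of 15 regulators of the pathway, Srebf1, the lipogenic SREBP gene, measured 19.64 to 30.09 FPKM over all tumours, and Mid1ip1, the paralogue of Thrsp, 15.61 to 24.05. Within these ranges Srebf1 was higher with OPG-Fc (24.22 to 29.24) than with vehicle or the combination without overlap, and Mid1ip1 was lower with palbociclib (15.61 to 17.08) than with OPG-Fc or the combination. Pparg, the master factor of fat cells, measured 0.79 and 6.00 FPKM with vehicle, 5.09, 9.42 and 3.99 with OPG-Fc, 0.94, 0.45 and 0.46 with palbociclib and 1.60, 0.89 and 1.65 with the combination. Mlxipl, which encodes the glucose-sensing factor ChREBP, lay at 0.78 to 2.71 with OPG-Fc and at most 0.62 FPKM in either palbociclib group. None of the 15 passed in limma's fit of 11 tumours in either comparison with OPG-Fc, where the list's medians were -0.08 (combination) and -0.09 (palbociclib). Without vehicle replicate 2, Pparg fell in the combination (-1.54 ± 0.27, adjusted p = 0.0219), and Pparg (-2.09 ± 0.27, adjusted p = 0.00191), Cebpa, Nr1h3 and Mlxipl fell with palbociclib.

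Of 21 other fatty acid synthesis and desaturation genes, 19 were tested. Fads1, the delta-5 desaturase of polyunsaturated fatty acids, was the only one to pass in the fit of 11 tumours, and fell with palbociclib against OPG-Fc by 0.89 ± 0.14 on the log2 scale (limma adjusted p = 0.0270). It measured 29.75, 29.17 and 28.81 FPKM with OPG-Fc, 13.25, 16.35 and 16.67 with palbociclib, 22.75, 21.35 and 23.30 with the combination, and 24.87 and 18.72 with vehicle. Unlike Thrsp or Pck1 it was nearly level within each of these treated groups. Acsl1, which activates long-chain fatty acids, lay at 10.76 to 33.66 FPKM with OPG-Fc and 3.74 to 8.58 in both palbociclib groups, and Acacb, the mitochondrial carboxylase, at 1.52 to 3.94 and 0.62 to 1.27. Without vehicle replicate 2, Acacb and Acsl1 fell in the combination, and Fads1 and Acsl1 fell and Elovl7 rose with palbociclib, against OPG-Fc. The 8 NADPH supply genes had medians of -0.09 (combination) and -0.26 (palbociclib) and 0 called by limma in 11 tumours; without vehicle replicate 2 only Me2 fell, with palbociclib (-0.53 ± 0.14, adjusted p = 0.0467).

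Of 17 other glycerol 3-phosphate and triglyceride genes, 0 passed in 11 tumours against OPG-Fc, with medians of -0.36 (combination) and -0.20 (palbociclib). Pcx, pyruvate carboxylase, measured 13.73, 27.07 and 5.25 FPKM with OPG-Fc, 1.82, 1.28 and 1.51 with palbociclib and 2.34, 1.15 and 2.58 with the combination. Dgat2, which makes triglyceride, measured 10.74 to 39.54 with OPG-Fc and 3.45 to 9.70 FPKM in both palbociclib groups. Without vehicle replicate 2, Pcx (-2.22 ± 0.45, adjusted p = 0.0320), Gpam and the glycerol channel gene Aqp7 fell in the combination, and these and Dgat2 fell with palbociclib. In that fit 5 and 11 of the 12 adipocyte markers fell in the combination and with palbociclib. Of all tested genes 3.72% and 9.13% fell, in the same order. Of the 12 epithelial markers 0 and 3 rose, beside 129 and 150 of all 13074 tested genes.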

How the data were processed

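Bulk mRNA sequencing of 11 tumours was analysed from a table of FPKM values per gene that the authors deposited; RSEM, Bowtie2 and HISAT and the build GRCm39 are named per the submitters' processing notes, while versions are not given in the sources used here. Counts were not used here, so depth is unknown; summed FPKM was 576699 to 864670 per tumour. Values were analysed as log2(FPKM + 1), which understates changes of low genes. Genes with at least 1 FPKM in at least 2 tumours (13074 of 17181) were fitted by group with limma 3.58.1 (eBayes with trend, R 4.3.3), two-sided, Benjamini-Hochberg adjusted over all of them per comparison; the fit was tested on simulated data. Of the lists, all 10 genes were named throughout; for each the 3 nearest genes, and for other lists up to 4 genes of smallest p, were named, and genes called without vehicle replicate 2 are listed as well; a few of the nearest genes are not reported here. The 10 genes, the lists and the doubt about vehicle replicate 2 were chosen with earlier results of these data known. Alternatives were another pseudocount (0.1), filters, scalings, a replicate block, a marker covariate, fewer groups, and each tumour left out; the fit with the covariate and without vehicle replicate 2, and a transcript length correction, were added after seeing the data. Promoters came from RefSeq (GRCm38.p6).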

Additional observations from a re-analysis of the deposited data

How the results depend on the processing

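Depth is unknown and each group holds 2 or 3 tumours, so genes near 0 (Thrsp, Pck1 and Gpd1 with palbociclib) are imprecise. With a pseudocount of 0.1, either other filter, quantile or median-of-ratios scaling, the length correction or the skin-marked palbociclib tumours left out, 0 of 10 genes passed in each of the 6 comparisons, as in the fit of 11 tumours. Leaving out 1 tumour at a time gave 0 to 1 calls for OPG-Fc against vehicle, 0 to 5 for palbociclib and 0 to 5 for the combination against vehicle, 0 to 6 for the combination against OPG-Fc and 0 to 5 for palbociclib against OPG-Fc. The highest counts arose without a vehicle tumour: vehicle replicate 1 for the 3 comparisons with vehicle, either for the other 2. Without vehicle replicate 1, 40.3%, 52.0% and 50.8% of all genes passed in the comparisons of OPG-Fc, palbociclib and the combination with vehicle, so 5 of 10 is close to that background. With only the 2 groups compared in the fit, 1 of the 10 genes (Scd1) passed for the combination against OPG-Fc, beside 1.22% of all genes. For palbociclib against OPG-Fc 5 of the 10 passed in such a fit, beside 10.8% of all genes. With the marker covariate and all 11 tumours, 1 passed for OPG-Fc against vehicle (Scd2, higher), beside 24.8% of all genes.

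Of 60 fitted values (10 genes in 6 comparisons), 28 turned sign under at least 1 alternative, 9 of them in the combination against palbociclib, 6 each in OPG-Fc and the combination against vehicle, 4 in palbociclib against OPG-Fc, 3 in palbociclib against vehicle and 0 in the combination against OPG-Fc. Without vehicle replicate 2, 8 values turned, and 12 and 15 turned with the covariate in 11 and 10 tumours. Among fold changes given in the text, Scd1 in OPG-Fc against vehicle was -0.53 with the covariate and -0.84 to 3.19 with 1 tumour left out. In palbociclib against OPG-Fc, the covariate gave 0.21 for Scd1, -0.82 for Scd2 and 0.12 for Gpd1; with vehicle replicate 2 also left out it gave -0.11 for Scd2 and 0.13 for Thrsp. Scd2 there was -0.036 to 0.268 with 1 tumour left out and -0.27 without palbociclib replicates 1 and 3. The cause was not tested.

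Calls over all genes moved more: for the combination against OPG-Fc from 1 higher and 12 lower to 129 and 486 without vehicle replicate 2, and for palbociclib against OPG-Fc from 1 and 118 to 150 and 1194; with only the 2 groups fitted they were 24 and 136, and 224 and 1190, and with quantile normalization 0 and 0, and 3 and 47. Replicate numbers are shared between groups. Over 15 same-numbered pairs the correlation of deviations was -0.406 to 0.528, with 5 over 0.1 and 4 of 11 tumours closest to their own number. Deviations from the mean of 2 or 3 tumours depend on each other, so this cannot show whether equal numbers mark a shared batch. With the replicate block 0 of the 10 genes passed in any comparison, and calls over all genes went from 119 to 14 for palbociclib against OPG-Fc and from 13 to 0 for the combination against OPG-Fc.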
